A study of Homo sapiens with 6 samples.

Results

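The abundant core enzymes of glycolysis were followed in human glioblastoma xenografts treated with bevacizumab, an antibody against human VEGFA, the growth factor that drives vessel formation. They are 10 genes, GPI, ALDOA, ALDOC, TPI1, GAPDH, PGK1, PGAM1, ENO1, ENO2 and PKM, of the 19775 genes that at least 1 probe set reads alone. A probe set is a group of short probes that reads 1 transcript region. The 10 genes were taken from the pathway by name, with every probe set that the platform annotation gives to one of them alone, which made 28 probe sets. All 10 genes and all 28 probe sets were bright enough to be tested.

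Treated mice received intraperitoneal bevacizumab (10 mg/kg, every 3 days), and the control mice received saline. Both groups carried subcutaneous tumours of U87-EV, implanted with Matrigel into female BALB/c SCID mice aged 6 to 8 weeks, which lack functional T and B cells. U87 is an established human glioblastoma line, and the labels do not say what EV stands for or whether the cells were 1 clone. Dosing began at 150 to 200 mm3 and ended at a tumour size of some 15 to 30 mm, with 5 mice per group at the start and 3 arrays per group here. Whether the 3 arrays of a group are 3 different mice is not in the labels, so the p-values reflect array-to-array spread that may include technical repeats.

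Glycolysis turns glucose into pyruvate in the cytosol and makes ATP without oxygen. GPI turns glucose 6-phosphate into fructose 6-phosphate, aldolase (ALDOA, ALDOC) splits the doubly phosphorylated sugar into a pair of triose phosphates, and TPI1 interconverts these. GAPDH, PGK1, PGAM1, enolase (ENO1, ENO2) and PKM then carry the trioses to pyruvate, with ATP made at the PGK1 and PKM steps. ALDOC and ENO2 are the brain and neuronal isozymes, ALDOA and ENO1 the widely expressed ones. Several of these genes are textbook targets of hypoxia-inducible factors, which bind a short DNA element with the core ACGTG or GCGTG.

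Promoter sequences are shown because 7 of the 10 genes carried the letters ACGTG near a transcription start. RefSeq promoter windows (GRCh38.p14, 250 bases before to 50 after a start) were found for all 10 genes, 13 windows in all, since ALDOA and TPI1 have more than 1. ACGTG or its reverse complement CACGT was present in 9 of the 13 windows, which is 69.2%, against 21.4% of all 35116 windows of the same length. The sequences below belong to the isozyme pairs and to PGK1, with ACGTG and CACGT in capitals, written 5′ to 3′ on the strand of the gene. They lie at chr17:28576846-28577145 (ALDOC, minus strand), chr16:30064029-30064328 (ALDOA, plus strand, the first of its 3 windows), chr12:6914330-6914629 (ENO2, plus strand), chr1:8878637-8878936 (ENO1, minus strand) and chrX:78103998-78104297 (PGK1, plus strand).
ALDOC: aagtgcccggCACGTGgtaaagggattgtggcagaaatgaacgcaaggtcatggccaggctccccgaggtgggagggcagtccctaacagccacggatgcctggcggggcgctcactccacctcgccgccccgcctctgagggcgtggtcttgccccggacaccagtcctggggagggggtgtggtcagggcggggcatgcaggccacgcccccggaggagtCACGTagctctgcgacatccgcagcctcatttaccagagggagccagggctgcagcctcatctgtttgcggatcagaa
ALDOA: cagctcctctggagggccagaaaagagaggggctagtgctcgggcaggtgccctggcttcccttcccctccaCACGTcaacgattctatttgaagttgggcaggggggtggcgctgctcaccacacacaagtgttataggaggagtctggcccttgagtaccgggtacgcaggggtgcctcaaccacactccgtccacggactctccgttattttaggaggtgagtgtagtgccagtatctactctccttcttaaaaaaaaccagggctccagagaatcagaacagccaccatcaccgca
ENO2: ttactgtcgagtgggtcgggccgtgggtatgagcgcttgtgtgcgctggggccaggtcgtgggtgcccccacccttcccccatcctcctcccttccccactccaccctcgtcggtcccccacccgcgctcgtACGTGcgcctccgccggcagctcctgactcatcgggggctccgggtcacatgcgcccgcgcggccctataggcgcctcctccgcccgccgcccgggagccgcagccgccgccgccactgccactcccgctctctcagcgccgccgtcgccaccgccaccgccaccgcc
ENO1: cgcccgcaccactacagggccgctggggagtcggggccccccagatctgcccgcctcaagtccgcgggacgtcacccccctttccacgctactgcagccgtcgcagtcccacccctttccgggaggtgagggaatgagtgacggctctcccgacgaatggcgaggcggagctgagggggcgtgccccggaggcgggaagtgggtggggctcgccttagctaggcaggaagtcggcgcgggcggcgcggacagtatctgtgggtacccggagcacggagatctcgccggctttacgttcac
PGK1: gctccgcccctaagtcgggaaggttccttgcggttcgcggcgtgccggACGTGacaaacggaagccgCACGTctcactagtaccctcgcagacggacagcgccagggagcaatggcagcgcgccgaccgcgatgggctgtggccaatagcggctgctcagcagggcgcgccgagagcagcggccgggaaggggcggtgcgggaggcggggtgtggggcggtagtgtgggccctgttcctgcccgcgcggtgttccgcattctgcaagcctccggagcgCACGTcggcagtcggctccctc

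The ALDOC window held 3 matches, of which a pair overlap in the palindrome CACGTG at 240 bases before the start. That palindrome was in 3 of the 13 windows, also in GAPDH and in the second ALDOA window, and in 7.26% of all windows. PGK1 also had 3 matches, at 202 and 183 bases before its start and 28 bases after it. ENO2 had 1 match, at 118 bases before the start. The windows of ENO1, PGAM1 and PKM held neither ACGTG nor CACGT. The other spelling, GCGTG or its reverse complement CACGC, is not in capitals and was in 5 of the 13 windows (38.5%), near the 36.5% of all windows. These were windows of ALDOC, TPI1 and PGK1, which rose, and of ENO1 and PKM, which did not pass, so 9 of the 10 genes had 1 of the spellings and PGAM1 had neither. All 5 genes that rose after bevacizumab (below) had ACGTG or CACGT in at least 1 window, and so did GPI and GAPDH among the 5 that did not pass the test. The background shares are per window, so these counts of genes have no share over all genes beside them. ALDOA and TPI1 had more than 1 window in which to match. A match is a run of letters, not a shown binding site, and no match says only that the letters are not in this window.

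The values are the log2 expression values the authors made with GCRMA, which removes background according to each probe's sequence, brings the arrays to a common scale and joins the probes of a set into 1 value. Each gene was represented by its brightest probe set, by the mean of all 6 arrays. Groups were compared with limma over 10233 genes with a mean of at least 4, and an adjusted p under 0.05 (Benjamini-Hochberg over all tested genes) counts as past the threshold. Log2 differences are bevacizumab minus control.

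Bevacizumab tumours had more ALDOC, ENO2, PGK1, ALDOA and TPI1 transcript. ALDOC and ENO2 rose by more than 2 on the log2 scale and the other 3 by less than 1. GPI, PKM, PGAM1, ENO1 and GAPDH did not pass. Of the 10 genes 5 rose and none fell, beside 9.09% of all tested genes that rose, 9.97% that fell and 19.1% that did either. The median of the 10 log2 differences was 0.51, beside -0.01 over all tested genes. On all 10 genes every bevacizumab array lay above every control array, an order seen in 19.0% of all tested genes, while 41.0% had groups apart in either direction and 48.6% a higher mean after bevacizumab. The nearest arrays of the groups were only 0.006 apart on PKM and 0.015 on ENO1, and the groups overlapped on the second bright ENO1 probe set. In tumour RNA a change in the share of cells that express a gene and a change in RNA per cell cannot be told apart.

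**Figure D1:**
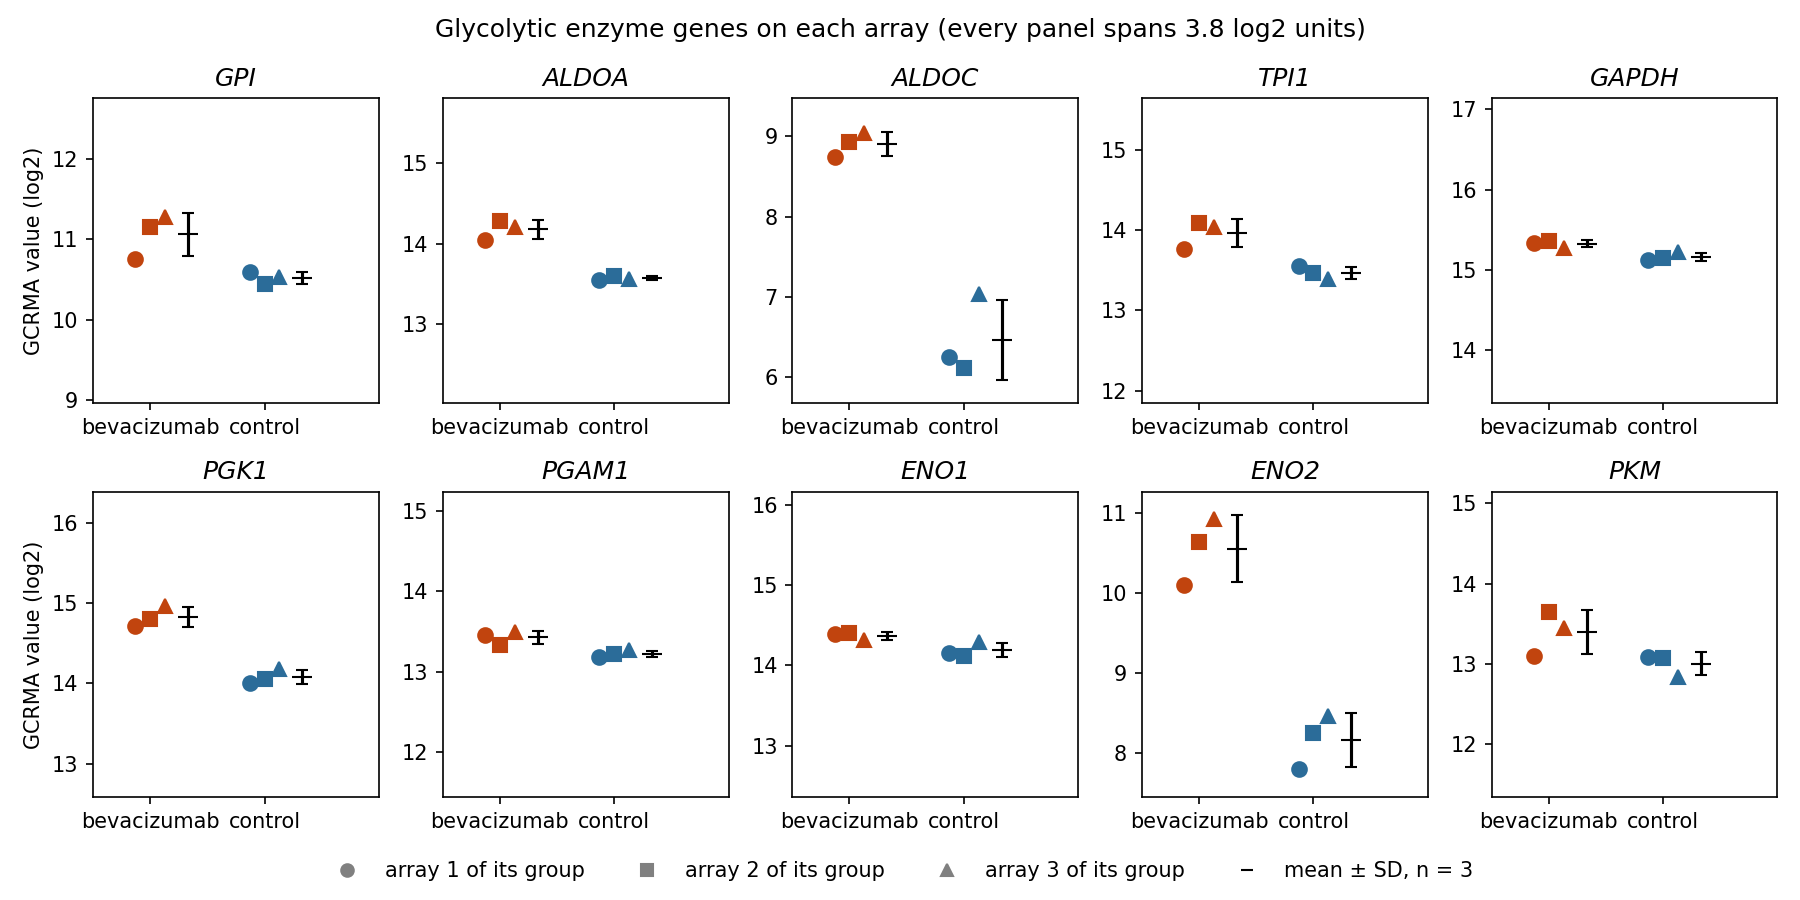
Log2 GCRMA value of each glycolytic enzyme gene (vertical axis, the same span in every panel) on the 3 bevacizumab arrays (left, orange) and the 3 control arrays (right, blue), with the mean ± SD of each group in black. The group means of ALDOC and ENO2 differ by over 2 log2 units, those of PGK1 and ALDOA by less than 1, and PKM has bevacizumab 1 level with the highest control.

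The count of 5 rested partly on single arrays. It was 3 without control 1 (ALDOC, ENO2 and PGK1) and lay between 4 and 7 when any other array was left out. Calls over all tested genes moved as well, from 1950 to 578 without control 1, and to between 558 and 2074 when any other array was left out. Both signs of RNA quality, the 3′ minus 5′ differences of ACTB and GAPDH, were higher on average in the bevacizumab group. That of GAPDH did not overlap (-0.06 to 0.01 on bevacizumab arrays, against -0.14 to -0.11 on control arrays, exact permutation p = 0.1, two-sided), and that of ACTB did. The ACTB control probe sets, 3′ minus 5′, gave a log2 value of 1.94, 1.86 and 1.64 on bevacizumab 1, 2 and 3, against 1.14, 1.33 and 1.66 on control 1, 2 and 3 (difference of means 0.43, exact permutation p = 0.2, two-sided, smallest possible 0.1). Once the ACTB difference entered limma as a covariate, none of the 10 genes passed, beside 24 of all 10233 tested genes (1950 without the covariate). Without the covariate 8 of the 10 genes had an unadjusted p under 0.05, beside 3664 of all 10233 tested genes. With it 7 of the 10 had one, a count that has no share over all tested genes of this fit beside it. Log2 differences in this fit were 2.01 for ALDOC, 2.27 for ENO2, 0.73 for PGK1, 0.64 for ALDOA and 0.66 for TPI1. The part of RNA quality in these results was not tested further.

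GPI follows hexokinase and had a single probe set (208308_s_at; gene at chr19:34359718-34402413, GRCh38.p14). It read 10.75, 11.15 and 11.27 on bevacizumab 1, 2 and 3, against 10.59, 10.45 and 10.53 on control 1, 2 and 3. The groups did not overlap, and bevacizumab 1 was the lowest of its group. Its log2 difference was 0.54 (SE 0.15, limma adjusted p = 0.0553), just short of the threshold. Without bevacizumab 1 GPI passed (0.69, adjusted p = 0.0148), as it did with genes under a mean of 6 left out, with a variance trend, with quantile normalization and with the mean of all probe sets standing for each gene.

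ALDOA, the muscle-type aldolase that most tissues use, was read by 3 probe sets that all rose (gene at chr16:30064279-30070420). The brightest (200966_x_at) read 14.05, 14.28 and 14.20 on the bevacizumab arrays, against 13.55, 13.59 and 13.56 on the control arrays. The controls lay close together and every bevacizumab array stood at least 0.46 above them. The log2 difference was 0.61 (SE 0.09, limma adjusted p = 0.0107), or 1.53-fold (95% interval 1.31 to 1.78), a call lost without control 1 (adjusted p = 0.0521). In the fit over all 21673 tested probe sets the other ALDOA probe sets differed by 0.63 (214687_x_at) and 0.89 (238996_x_at).

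ALDOC, aldolase C of brain, showed the highest log2 difference of the 10 genes (202022_at; gene at chr17:28573120-28576895). It read 8.74, 8.92 and 9.04 on bevacizumab 1, 2 and 3, against 6.25, 6.11 and 7.04 on control 1, 2 and 3. Control 3 was the highest control, still 1.70 below the lowest bevacizumab array. The log2 difference of 2.43 (SE 0.25, limma adjusted p = 0.00459) is 5.41-fold, with a 95% interval from 3.53 to 8.27. It ranked 74th among the 10233 tested genes and passed in all 6 leave-one-out fits.

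TPI1, the triose phosphate isomerase, rose on its brightest probe set (213011_s_at; gene at chr12:6867420-6870948). This read 13.76, 14.09 and 14.04 on the bevacizumab arrays, against 13.55, 13.47 and 13.40 on the control arrays. The groups did not overlap, with bevacizumab 1 nearest to the controls. The log2 difference was 0.49 (SE 0.12, limma adjusted p = 0.0340), or 1.41-fold (1.16 to 1.71). The call was lost in 5 of the 6 leave-one-out fits (all but that without bevacizumab 1), with adjusted p of 0.0780 to 0.105, and with the replicate number as a block (0.0978). Of its other probe sets, 200822_x_at differed by 0.55 and did not pass (adjusted p = 0.0627 over probe sets), and 210050_at lay between 6.35 and 6.60 on all 6 arrays with overlapping groups.

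GAPDH, which makes NADH at the first step after the trioses, was read by 6 probe sets, of which 3 are array controls for its 3′, middle and 5′ parts (gene at chr12:6534517-6538371). The brightest (213453_x_at) read 15.34, 15.36 and 15.28 on the bevacizumab arrays, against 15.12, 15.14 and 15.22 on the control arrays. The groups were apart by 0.06 at their nearest arrays. GAPDH differed by 0.16 on the log2 scale (SE 0.08, limma adjusted p = 0.193), with a 95% interval from -0.03 to 0.36. The other 5 probe sets differed by 0.04 to 0.14, and on all 6 the bevacizumab arrays lay above the controls, with no call on any. The smallest difference, 0.04, was that of the 5′ control probe set, and it turned to -0.028 when arrays were shifted by the mean of the reference genes. The 3′ minus 5′ difference of GAPDH itself was -0.06, -0.01 and 0.01 on bevacizumab 1, 2 and 3, against -0.11, -0.11 and -0.14 on control 1, 2 and 3 (the RNA quality sign given above).

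PGK1, the first enzyme of the pathway to make ATP, rose on 5 of its 6 probe sets (gene at chrX:78104248-78129295). The brightest (200738_s_at) read 14.72, 14.81 and 14.97 on bevacizumab 1, 2 and 3, against 14.01, 14.06 and 14.18 on control 1, 2 and 3. All bevacizumab arrays stood at least 0.53 above all controls. The log2 difference was 0.75 (SE 0.10, limma adjusted p = 0.00867), or 1.68-fold (1.41 to 2.00), and it passed in all 6 gene leave-one-out fits. The dimmer probe sets differed by more, by 0.80 on 217356_s_at, 1.13 on 200737_at and 1.04 on 227068_at. The probe set 1558365_at, with 9.90, 10.02 and 9.60 on the bevacizumab arrays and 7.67, 7.11 and 7.92 on the control arrays, differed by 2.27 (SE 0.23, limma adjusted p = 0.00739 over probe sets). The sixth, 217383_at, was dim, between 4.80 and 5.98, with overlapping groups and a difference of -0.29 that did not pass (adjusted p = 0.591), and 0.018 with the 18S signal as a covariate.

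PGAM1, the phosphoglycerate mutase of most tissues, had 1 probe set (200886_s_at; gene at chr10:97426191-97433444). It read 13.45, 13.34 and 13.50 on the bevacizumab arrays, against 13.19, 13.22 and 13.26 on the control arrays. The groups did not overlap, but the log2 difference of 0.21 (SE 0.08, limma adjusted p = 0.138) did not pass, and its 95% interval reached 0.41.

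ENO1, the widely expressed enolase, had probe sets that disagreed (gene at chr1:8861000-8878686). The brightest (201231_s_at) read 14.39, 14.40 and 14.31 on the bevacizumab arrays, against 14.16, 14.12 and 14.29 on the control arrays. Bevacizumab 3 and control 3 were all but equal. The log2 difference was 0.18 (SE 0.09, limma adjusted p = 0.202), with a 95% interval from -0.04 to 0.39. The second bright probe set (217294_s_at) read 14.02, 13.92 and 14.01 on the bevacizumab arrays, against 14.01, 14.01 and 14.12 on the control arrays, with overlapping groups and a difference of -0.07 (adjusted p = 0.623 over probe sets). The dim ones differed by -0.13 (216554_s_at, adjusted p = 0.812) and 0.50 (240258_at, adjusted p = 0.123). The first of these changed sign without bevacizumab 2 (0.12) and with the 18S signal as a covariate (0.095).

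ENO2, the neuronal enolase, rose almost as far as ALDOC (201313_at; gene at chr12:6914580-6923697). It read 10.09, 10.64 and 10.91 on bevacizumab 1, 2 and 3, against 7.80, 8.25 and 8.46 on control 1, 2 and 3. The lowest bevacizumab array was 1.63 above the highest control. The log2 difference of 2.38 (SE 0.26, limma adjusted p = 0.00504) is 5.19-fold, with a 95% interval from 3.35 to 8.04. It ranked 80th of the tested genes and passed in all 6 leave-one-out fits.

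PKM, the pyruvate kinase of most tissues and of tumours, ends the sequence (201251_at; gene at chr15:72199029-72231591). It read 13.10, 13.65 and 13.45 on the bevacizumab arrays, against 13.09, 13.08 and 12.84 on the control arrays. Bevacizumab 1 was level with control 1. The log2 difference was 0.39 (SE 0.16, limma adjusted p = 0.139), and without bevacizumab 1 it was 0.54 and passed (adjusted p = 0.0440). The dim probe set 213700_s_at read between 5.55 and 6.31 on the bevacizumab arrays and between 5.13 and 5.51 on the control arrays, a difference of 0.61 (adjusted p = 0.126 over probe sets).

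Isozymes of the same step were set against each other. The question is whether ALDOC and ENO2 changed by more than ALDOA and ENO1 on the same arrays. Levels of different probes cannot be set against each other, so the within-array difference was only compared between groups. ALDOC minus ALDOA was -5.31, -5.36 and -5.16 on bevacizumab 1, 2 and 3, against -7.30, -7.48 and -6.53 on control 1, 2 and 3. The groups were apart by 1.17, and their means differed by 1.82 (SDs 0.10 and 0.51, n = 3 each), a 3.54-fold shift of the ratio of signals. ENO2 minus ENO1 was -4.30, -3.77 and -3.39 on the bevacizumab arrays, against -6.35, -5.87 and -5.83 on the control arrays. Again no arrays overlapped, and the means differed by 2.20 (SDs 0.45 and 0.29), a 4.59-fold shift. The exact permutation p was 0.1 for each pair (two-sided, also 0.1 adjusted over the 2 pairs), the smallest that 3 arrays against 3 allow, so neither can reach 0.05. The ALDOC and ENO2 signals lay lower on the scale (control means 6.47 and 8.17) than those of ALDOA and ENO1 (13.57 and 14.19). Within PGK1 the brightest probe set differed by 0.75. The dimmer 217356_s_at, 200737_at, 227068_at and 1558365_at differed by 0.80, 1.13, 1.04 and 2.27, and the dimmest, 217383_at, by -0.29 without passing. Whether the position on the scale had a part in the isozyme shifts was not tested.

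**Figure D2:**
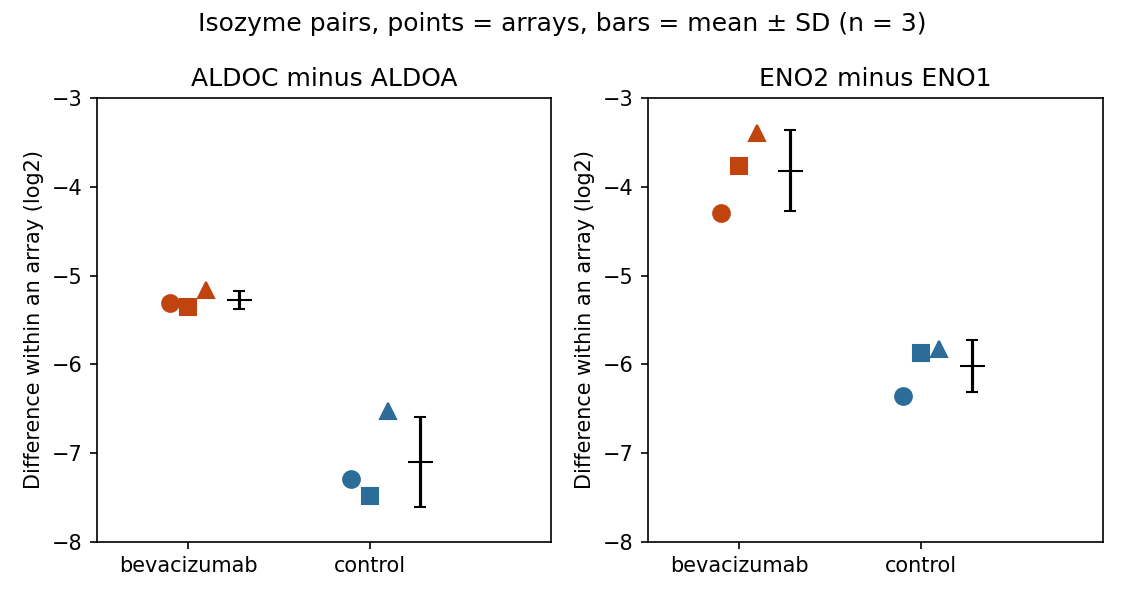
Within-array log2 difference of the brain-type isozyme gene minus the widely expressed one (vertical axis), for aldolase and enolase, on bevacizumab (orange) and control (blue) arrays. Circle, square and triangle are arrays 1, 2 and 3 of a group, and bars are mean ± SD. The bevacizumab arrays lie higher in both pairs, by 1.82 and 2.20 on average.

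Signals near the top of the scale are a limit on several of these genes. The highest value on an array was between 15.74 and 15.99. The brightest GAPDH probe set came within 0.40 of its array's maximum, PGK1 within 0.82, ENO1 within 1.35 and ALDOA within 1.56, while GPI stayed at least 4.51 below it, ENO2 at least 4.87 and ALDOC at least 6.75. Of the 10 genes 7 had a mean of at least 13, and 3 of these rose (PGK1, ALDOA and TPI1), beside 11.0% of the 309 tested genes that bright that rose and 9.39% that fell. The median size of the log2 difference was 0.16 in genes of a mean of at least 13. It was 0.26 at 10 to 13, 0.28 at 7 to 10 and 0.23 at 4 to 7. The largest size in genes of a mean of at least 13 was 2.27 (ADM). Whether saturation narrowed the differences of GAPDH, ENO1, PGK1 or ALDOA, or widened the isozyme shifts, was not tested.

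**Figure D3:**
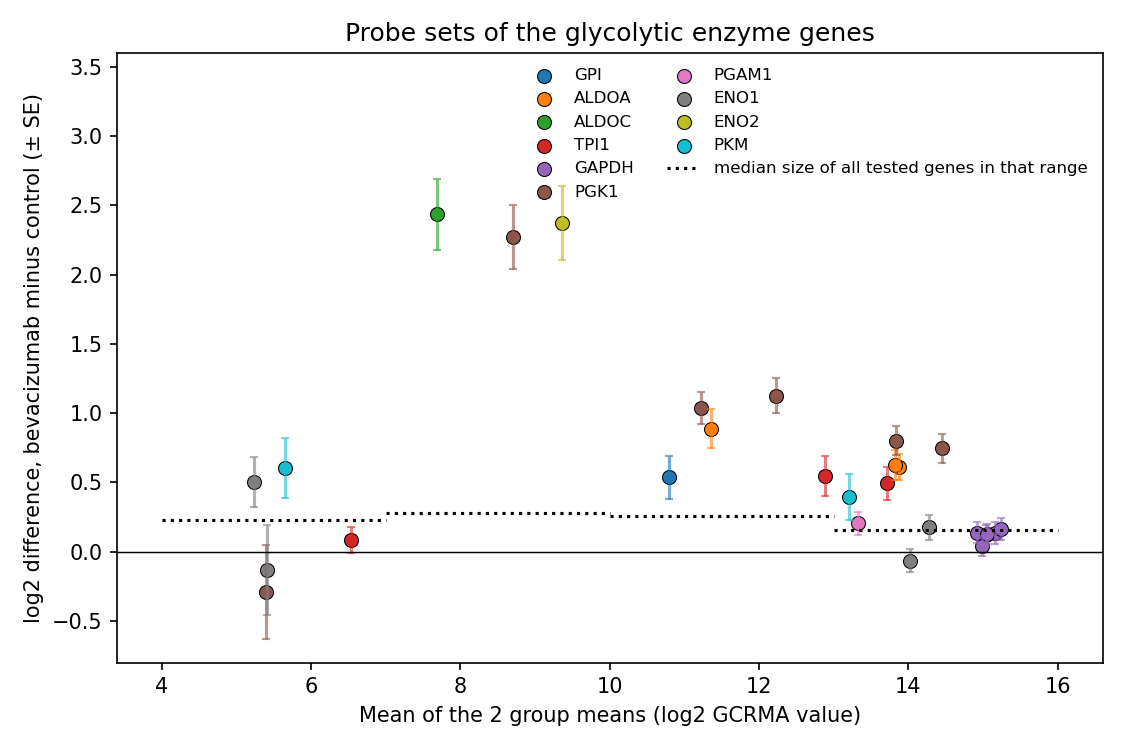
Log2 difference ± SE (vertical axis) of all 28 probe sets against the mean of the group means (horizontal axis), coloured by gene. Dotted lines give the median size of the difference over all tested genes in each range of levels. The brightest PGK1 and ALDOA probe sets have the smallest of the called differences of their gene (0.75 and 0.61), and the GAPDH probe sets lie together at the bright end between 0.04 and 0.16.

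Over the 28 probe sets 11 rose and none fell, beside 6.38% and 6.58% of all 21673 tested probe sets. Those 11 were 5 of PGK1, 3 of ALDOA and 1 each of ALDOC, ENO2 and TPI1. On 24 probe sets the bevacizumab arrays all lay above the controls, an order seen in 17.4% of all tested probe sets, and on 4 the groups overlapped. Means were lower after bevacizumab on 3, all without a call (217383_at, 216554_s_at and 217294_s_at). Probe sets of a gene share its transcript and are not replicates. The count of 11 was 5, 5 and 8 without control 1, 2 and 3. It was 13, 7 and 9 without bevacizumab 1, 2 and 3. Calls over all tested genes, from the separate fit over genes, went from 1950 to 578, 558 and 897 without control 1, 2 and 3. They went to 2074, 1075 and 1476 without bevacizumab 1, 2 and 3. No count over all tested probe sets stands beside these fits. Probe sets whose names end in _x_at or _s_at can also bind related transcripts, and GAPDH, ENO1, PGK1, TPI1 and ALDOA have processed pseudogenes, so their signals may include those.

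The bevacizumab arrays differed among themselves. Bevacizumab 1 was the lowest of its group on 7 of the 10 genes and the highest on none. The median distance of the 10 genes from their control mean was 0.26 on bevacizumab 1, 0.63 on bevacizumab 2 and 0.60 on bevacizumab 3. It lay between -0.04 and 0.05 on the controls. Control 3 was the highest control on 6 of the 10 genes, ALDOC, ENO2 and PGK1 among them.

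Transcripts for glucose entry were read beside the core enzymes. Of 4 tested genes for glucose uptake and phosphorylation 3 rose and none fell, beside 9.09% of all tested genes that rose and 9.97% that fell. SLC2A3, a glucose transporter, read 11.57 ± 0.51 in bevacizumab tumours and 8.48 ± 0.13 in control tumours (SD, n = 3 each; limma adjusted p = 0.00237), and HK2, a hexokinase, 11.85 ± 0.18 in bevacizumab tumours and 9.17 ± 0.36 in control tumours (adjusted p = 0.00207). SLC2A1, the transporter of most tissues, rose by 3.07 (adjusted p = 0.00654). Whether these log2 differences, of which SLC2A3 had 3.09 and HK2 2.68, exceed those of the core enzymes was not tested. With the mean of all probe sets standing for a gene, SLC2A1 rose by 1.82 and HK2 by 0.89, both still past the threshold. HK1, the constitutive hexokinase, differed by 0.22 (adjusted p = 0.231).

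At the phosphofructokinase step 4 of 7 tested genes rose and 1 fell (9.09% and 9.97% of all tested genes). PFKP and PFKL, subunits of the enzyme, rose by 1.17 (adjusted p = 0.0134) and 0.60 (adjusted p = 0.0266), and PFKFB3 and PFKFB4, whose product activates it, by 1.56 and 1.83. TIGAR, which breaks that activator down, fell by 1.07 (adjusted p = 0.00451). With the mean of all probe sets PFKP rose by 0.61 and PFKFB4 by 1.054. PFKFB4 and TIGAR passed in all 6 leave-one-out fits. PFKP lost its call without control 1 or 2, PFKFB3 without any 1 control, and PFKL in every such fit but that without bevacizumab 1. The step had 2 genes past the threshold without control 1, 2 without control 2 and 3 without control 3. Calls over all tested genes fell in these fits as well, from 1950 to 578, 558 and 897.

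Beyond PKM, 2 of 8 tested genes of pyruvate and lactate handling rose and 3 fell (9.09% and 9.97% of all tested genes). PDK1 and PDK3, kinases that switch off pyruvate dehydrogenase, rose by 1.93 and 1.26, while PDHA1, a subunit of that complex, fell by 0.64 (adjusted p = 0.0115). LDHB, the heart-type lactate dehydrogenase subunit, fell by 0.35 (adjusted p = 0.0430), a call that none of the 6 fits with an array left out kept. PDK4 fell by 1.46 (adjusted p = 0.0470), with a call kept only without control 2 among those fits, and PDK3 kept its call only without bevacizumab 3. Leaving out an array gave 2 or 3 such genes in place of 5, beside 558 to 2074 calls over all tested genes in place of 1950. LDHA, which turns pyruvate into lactate, differed by 0.18 (adjusted p = 0.171), close in size to GAPDH and ENO1. Its group means, 15.12 in bevacizumab and 14.95 in control tumours, also lay near the top of the scale, and whether saturation narrowed its difference was not tested. None of 7 tested genes of gluconeogenesis and side branches passed in limma. An unadjusted p under 0.05 was found for 3 of them, all with lower means after bevacizumab. In either direction it was found for 3664 of all 10233 tested genes. GPD2 (lower) and PC (higher) passed without bevacizumab 1, GPD1L (lower) without bevacizumab 2 and BPGM (lower) without bevacizumab 3. Under each of median centring, quantile normalization and the reference gene shift 2 genes passed, both lower. Over all tested genes 1235, 1241 and 1380 were called lower in these 3 fits, against 1020 in the main fit. Of 9 tested genes known to answer low oxygen, SLC2A1 again among them, 8 rose, beside 9.09% of all tested genes. Their median was 1.77 over the 9 genes, and EGLN3 did not pass (0.89, limma adjusted p = 0.0700). The 6 with the smallest p were NDRG1 (3.22), ANKRD37 (2.27), DDIT4 (1.61), ADM (2.27), VEGFA (1.40) and SLC2A1 (3.07). With the mean of all probe sets ANKRD37 rose by 1.14. PDHA1 fell by 0.42 in that setting.

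**Figure D4:**
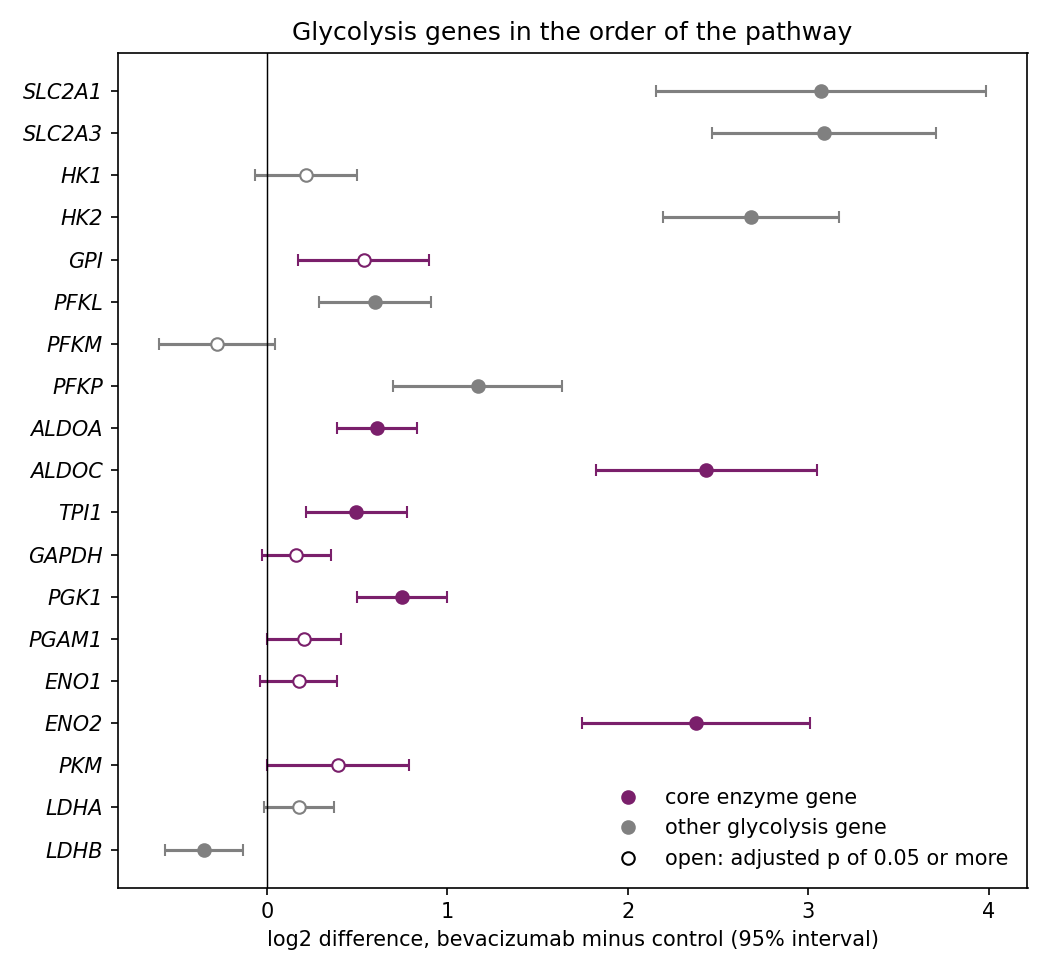
Log2 difference, bevacizumab minus control, with its 95% interval (horizontal axis) for genes from glucose uptake at the top to lactate dehydrogenase at the bottom. Core enzyme genes are purple and other glycolysis genes grey, and open circles did not pass the threshold. The farthest differences among core enzymes are those of ALDOC (2.43) and ENO2 (2.38), and GAPDH, ENO1 and LDHA lie near 0.2.

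Other isozymes of the same steps were dim. GAPDHS, PGK2, PGAM2, ENO3 and PKLR had means of at most 2.59 in both groups, near the lowest value of the table (2.23), and PGAM5, a mitochondrial phosphatase of the mutase family, was at 3.44 in bevacizumab and 3.76 in control tumours, so none was tested. ENO3 and PGAM2 are the muscle forms, GAPDHS and PGK2 those of sperm and PKLR that of liver and red cells.

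GAPDH and PGK1 are often used as reference genes for other measurements. Of 7 other such genes that were measured, the transferrin receptor gene TFRC rose by 0.99 (limma adjusted p = 0.00546, and by 0.62 with the mean of all probe sets), SDHA fell by 0.47 (adjusted p = 0.0220) and 5 did not pass, among them ACTB with a difference of 0.02 and PPIA with -0.18. SDHA lost its call without any 1 control. When each array was shifted by the mean of these 7 genes, 5 of the core enzymes rose as before in number and their median difference was 0.44.

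The genes whose values followed the isozymes most closely were found by the root mean square distance over the 6 arrays, after each gene's control mean was taken off. LTBP1 and TMEM158 lay nearest to ALDOA, at 0.04 and 0.05 log2 units, and TMEM178B and TAF9B nearest to ALDOC, at 0.14 and 0.21. GOLM2 and ZNF75A were nearest to ENO1 (0.02 and 0.03), and LOXL2 and FAM107B nearest to ENO2 (0.17 and 0.18). This is a description of likeness over 6 arrays.

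Markers were read for the cells the tumours could hold. Any mural, fibroblast, endothelial, macrophage or blood cells would be those of the mouse host, while the array reads human genes. Whether a marker signal came from the U87-EV cells or from the host cannot be told apart. Of 9 markers of the glioma line VIM, CD44, NES, TNC and CHI3L1 were bright enough to test, while GFAP, SOX2 and OLIG2 were under a mean of 4 and S100B was at the table's lowest value on every array. Their summed signal (log2) was 16.15 to 16.22 in bevacizumab tumours and 15.98 to 16.01 in control tumours, with CHI3L1 higher by 1.60 and NES lower (-1.18) after bevacizumab, both past the threshold. The log2 of the summed signal of 7 mural cell markers was 11.80 to 12.04 in bevacizumab tumours and 13.06 to 13.40 in control tumours, of which ACTA2 and RGS5 fell and PDGFRB, CSPG4 and MCAM had higher means (0.30, 0.16 and 0.42) without passing. The sum of 7 macrophage markers was 8.37 to 9.02 in bevacizumab and 9.46 to 9.67 in control tumours, with CD14, CD163 and TYROBP at the lowest value throughout. Nearly all of it was ADGRE1 (8.54 in bevacizumab and 9.46 in control tumours), which passed as lower (-0.92, limma adjusted p = 0.0352). AIF1, also bright enough to test, did not pass (-0.14). The 6 fibroblast markers summed to 16.28 to 16.56 in bevacizumab tumours and 16.57 to 16.75 in control tumours, and 1 of them, COL3A1, passed the threshold (-0.84). Skeletal muscle, rich in ALDOA, had 7 markers with a sum of 5.96 to 6.27 in bevacizumab and 5.52 to 5.59 in control tumours, all but TNNT3 at or near the lowest value. TNNT3, the only one bright enough to test, rose by 1.07 (limma adjusted p = 0.00884). For 7 neuron markers, of which 5 were bright enough to test and RBFOX3 was at the lowest value, the sums overlapped (12.27 to 12.83 in bevacizumab and 12.61 to 12.85 in control tumours), as did those of 8 endothelial markers (7.35 to 7.61 in bevacizumab and 7.31 to 7.42 in control tumours). The 3 red blood cell markers summed to 4.01 to 4.29 in bevacizumab and 4.32 to 5.27 in control tumours, with ALAS2 at the lowest value. The part of these cells in the results was not tested, and RNA of the mouse host, whose glycolytic genes are close in sequence, cannot be told apart from tumour RNA on these probes.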

How the data were processed

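RNA of U87-EV xenografts was read on 6 one-colour Affymetrix arrays, 3 bevacizumab and 3 control. The deposited log2 values were made by the authors with GCRMA, per the submitters' processing notes, which also name GCOS 1.1.1.052. The log2 scale was inferred from the values (2.23 to 15.99). No scanner files were used here, so saturation could not be read from spots. Scan dates and batches are not stated in the labels. Array medians lay between 2.49 and 2.51, array profiles correlated at 0.992 to 0.997 within groups and 0.986 to 0.993 between them, and the number of arrays limits the precision. No column of per-sample values was left unused.

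Of 54675 probe sets 41097 had 1 gene symbol, 1801 several and 11777 none listed. Symbols were set through the gene identifier for 41043, and the platform annotation's symbol was kept for 54. The 62 array control probe sets stood for no gene, but those of GAPDH entered the fit over probe sets. Genes of a mean of at least 4 were tested with limma 3.58.1 in R 4.3.3 (lmFit, eBayes, two-sided, Benjamini-Hochberg). Isozyme pairs and 3′ to 5′ differences had exact permutation tests. The procedure was tested on simulated data.

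The enzyme genes, gene lists, tests and the rule for naming genes were chosen with earlier results of these data known. The rule took all members, up to 6 genes past the threshold per list and the 2 nearest genes for each of 4 isozymes. HK1, LDHA, PPIA, ACTB, EGLN3, GPD2, PC, GPD1L, BPGM and the dim isozymes fall outside it and were named after their values were seen. Alternatives were the filter, the probe set for a gene, a floor, scaling, a variance trend, RNA quality covariates, a replicate block and leaving out each array. Arrays with the same replicate number did not deviate together (correlations -0.05, -0.01 and -0.05), so the main fit has no block.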

Additional observations from a re-analysis of the deposited data

How the results depend on the processing

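All 180 recomputed log2 differences of the 10 enzyme genes kept their direction over 18 alternatives, with 14 calls lost and 6 gained. The median of the 10 was 0.42 to 0.65. GAPDH, PGAM1 and ENO1 passed in none. With the ACTB 3′ to 5′ difference as a covariate, 24 genes in all passed, 0 of the 10 enzyme genes, 0 of their 28 probe sets and 0 of the 26 pathway genes. With the 18S signal as a covariate there were 693 genes in all, 5 probe sets and 7 pathway genes, and with no filter on dim genes 598, 1 and 5. As the replicate numbers do not pair the arrays, the block's counts are given here only. It left 904 genes, 4 enzyme genes and 4 probe sets, and gave the same isozyme differences (1.82 and 2.20, exact sign-flip permutation p = 0.25, the smallest possible). The cause of these changes was not tested. Leaving out each array in turn gave 558 to 2074 genes, 3 to 7 enzyme genes, 5 to 13 probe sets and 7 to 13 pathway genes, isozyme differences of 1.64 to 2.11 (aldolase) and 1.99 to 2.44 (enolase), and 3′ to 5′ differences of 0.31 to 0.57 (ACTB) and 0.08 to 0.11 (GAPDH). Pathway genes split into 9 higher and 4 lower, and into 9 and 7 with arrays centred on their median or shifted by the reference genes. On 3 probe sets the difference changed sign, with no call on any of them in those fits: the 5′ GAPDH control (-0.028 with the reference gene shift), 217383_at of PGK1 (0.018 with the 18S covariate) and 216554_s_at of ENO1 (0.095 with the 18S covariate, and -0.45 to 0.12 when an array was left out, the higher without bevacizumab 2).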
